A study of Rattus norvegicus with 6 samples.

Results

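The intermediate filament genes examined here are Gfap, Vim, Nes, Synm, Prph, Nefl, Nefm, Nefh, Krt8 and Krt18, 10 of the 29468 gene symbols in the expression tables, chosen by name. Their RNA levels were compared between 3 preparations of Schwann cell precursors (SCPs) and 3 preparations of repair Schwann cells (RSCs). The labels give wild-type LEWIS rats for every sample, whereas the authors describe a transgenic LEWIS line expressing a red fluorescent protein for their grafted cells. The SCPs were dissociated by enzymes from sciatic nerve and brachial plexus at embryonic day 14, with no treatment. The RSCs were dissociated from the distal part of the cut sciatic nerve of rats labeled as 10 weeks old, 1 week after the cut, so age, injury and the source nerves all differ between the groups. No sorting is described, and cells that stuck to uncoated plastic were removed from both. Whether a preparation pooled several animals was not given in the sources used here, so the p-values measure the spread between these preparations.

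Intermediate filaments are ropes of coiled-coil proteins that give a cell mechanical strength and hold its organelles in place, and each cell type builds them from its own choice of family members. Vimentin and nestin are the filaments of immature and migrating cells, GFAP is that of astrocytes and of Schwann cells that do not make myelin, the neurofilaments and peripherin fill axons, and the keratins 8 and 18 pair in simple epithelia. Schwann cells that lose their axon after injury give up myelination and take up a repair state, in which GFAP and vimentin are known to rise.

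Of the 10 genes, 4 were higher in the RSCs, namely Gfap, Vim, Nes and Synm, and none of the others passed the test in either direction. Expression is given in FPKM, fragments counted per kilobase and relative to all mapped fragments, summed over the named transcripts of a gene. Differences are RSC minus SCP on the log2(FPKM + 1) scale, which understates the change of genes with few FPKM, with p-values from limma. A gene was called at the study's threshold, an unadjusted p under 0.01, and adjusted p-values were corrected by the Benjamini-Hochberg method across the 13003 genes that averaged 1 FPKM or more. Among these genes 40.5% were called, 18.1% higher in RSCs and 22.4% higher in SCPs. Counts of called genes from named transcripts, in the family and in every list below, are to be read against these shares. Of the intermediate filament genes 8 entered the test, and Nefh and Krt18 did not, because their mean was under 1 FPKM. The median difference was 0.41 over these 8 genes and -0.17 over all tested genes. After median-of-ratios scaling the median over all tested genes moved to 0.0053. That scaling also shifted the 8 genes upward, for example Nes from 1.85 to 2.05 and Krt8 from -0.49 to -0.35. The 0.41 belongs to the unscaled values and is not to be set against 0.0053. RSC and SCP values lay apart in 5 of the 8, against 58.6% of all tested genes.

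The plot of FPKM by sample shows the range that the family covers, from the neurofilament gene Nefh near 0 to Vim among the most abundant RNAs of the RSCs.

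**Figure D1:**
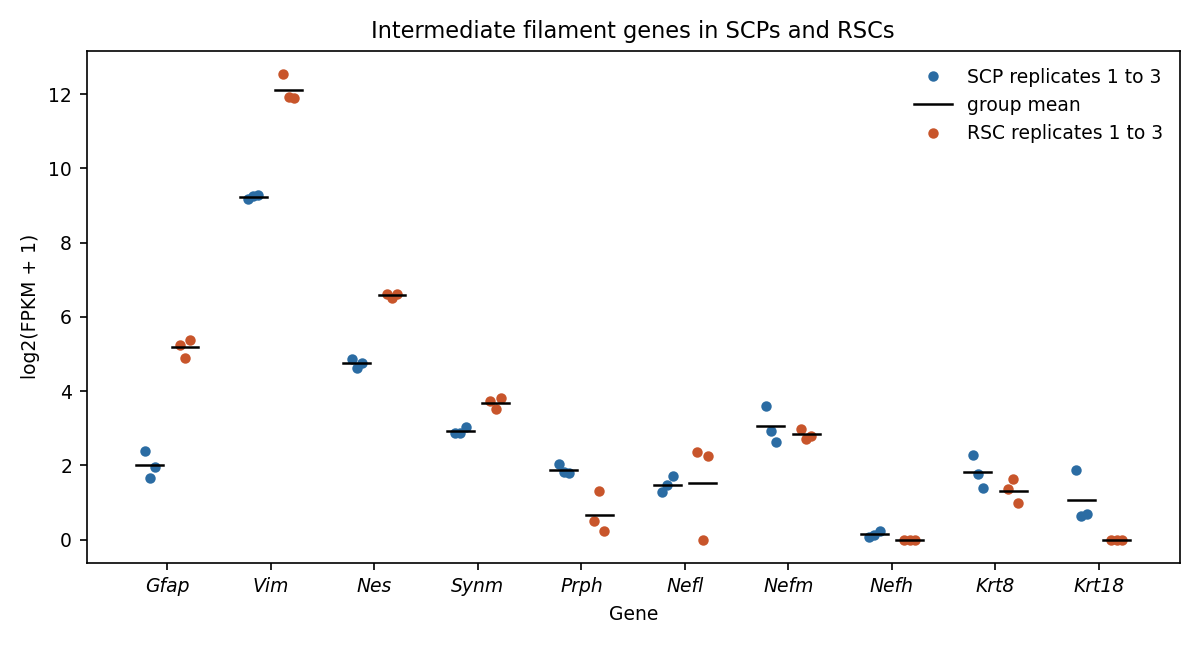
Expression of the 10 genes as log2(FPKM + 1) on the vertical axis, with 1 point per preparation (SCP replicates 1 to 3 on the left of each pair, RSC replicates 1 to 3 on the right) and a line at the group mean. The RSC points of Gfap, Vim, Nes and Synm lie above all SCP points, those of Prph, Nefh and Krt18 lie below them, and those of Nefl, Nefm and Krt8 overlap.

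The bases before the transcription start of the 4 genes that were higher in RSCs are shown because these genes moved in the same direction. They come from RefSeq on the GRCr8 rat assembly, are written along the gene's own strand and cover 250 bases that end just before the start. Capitals mark matches on either strand to a TATA box (TATAAA), a GC box (GGGCGG) or a CCAAT box (CCAAT), and none of the matches overlap. Neither TGANTCA, the AP-1 motif, nor TTCNNNGAA, the STAT motif, was found in any of them. A promoter was found for 7 of the 10 genes.
Gfap, chr10:88361662-88361911, minus strand: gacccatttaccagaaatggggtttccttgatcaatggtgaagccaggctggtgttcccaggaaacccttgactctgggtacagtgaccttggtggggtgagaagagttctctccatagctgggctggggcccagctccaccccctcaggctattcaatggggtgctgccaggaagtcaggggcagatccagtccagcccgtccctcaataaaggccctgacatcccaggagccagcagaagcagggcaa
Vim, chr17:81577011-81577260, plus strand: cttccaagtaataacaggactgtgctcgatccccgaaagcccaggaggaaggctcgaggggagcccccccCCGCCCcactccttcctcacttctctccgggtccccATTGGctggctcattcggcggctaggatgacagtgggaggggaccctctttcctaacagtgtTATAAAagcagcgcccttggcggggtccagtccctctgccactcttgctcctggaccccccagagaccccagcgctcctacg
Nes, chr2:175736338-175736587, plus strand: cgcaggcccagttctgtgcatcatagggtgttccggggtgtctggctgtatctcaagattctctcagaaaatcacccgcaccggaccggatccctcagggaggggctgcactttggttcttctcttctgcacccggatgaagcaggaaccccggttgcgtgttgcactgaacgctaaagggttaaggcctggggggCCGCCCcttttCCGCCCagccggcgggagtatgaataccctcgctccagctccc
Synm, chr1:130773825-130774074, minus strand: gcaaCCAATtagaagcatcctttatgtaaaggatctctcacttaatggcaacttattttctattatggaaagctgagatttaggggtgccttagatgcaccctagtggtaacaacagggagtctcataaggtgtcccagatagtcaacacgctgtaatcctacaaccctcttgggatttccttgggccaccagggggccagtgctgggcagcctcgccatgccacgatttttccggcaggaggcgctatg

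No motif was shared by all 4 sequences. The Vim sequence held a GC box, a CCAAT box and a TATA box, beginning 180, 144 and 82 bases before the start. Nes held a pair of GC boxes, 54 and 43 bases before the start, Synm held a CCAAT box 246 bases before it, and the Gfap sequence held no match. Among 33469 promoter sequences of this length, 12.9% held the TATA box, 30.5% the GC box, 34.0% the CCAAT box, 6.34% the AP-1 motif and 7.67% the STAT motif. G and C made up 57.6% of the bases for Gfap, 62.4% for Vim, 60.4% for Nes and 49.2% for Synm, against a median of 51.2% over those promoters. A match describes letters only and shows no binding.

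Gfap, which encodes glial fibrillary acidic protein, lies on chromosome 10 from 90990762 to 90999501 of rn6, the build of the expression tables. It was at 4.20, 2.17 and 2.90 FPKM in SCP replicates 1, 2 and 3, and at 36.9, 28.8 and 40.9 FPKM in the RSC replicates. The lowest RSC value stood far above the highest SCP value. The mean was 3.09 ± 1.03 FPKM in SCPs and 35.6 ± 6.16 FPKM in RSCs (SD, n = 3 each), an 11.5-fold difference. On the log2 scale the difference was 3.18 (standard error 0.24, adjusted p = 0.00021, limma). It ranked 481 among the 13003 tested genes by log2 difference. Gfap and Vim were the 2 genes of the family over 4-fold, a mark passed by 7.81% of tested genes in the direction of the RSCs and 3.78% in that of the SCPs. Ordered by mean FPKM, Gfap moved from rank 9551 of all symbols in SCPs to rank 2179 in RSCs.

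A transcript of 2688 bases carried the named Gfap expression of every sample but SCP replicate 1. In the SCPs it was at 2.82 FPKM (Cufflinks bounds 1.86 to 3.73), 2.17 FPKM (1.44 to 2.93) and 2.90 FPKM (1.89 to 3.86). In the RSCs it was at 36.9 FPKM (32.9 to 40.9), 28.8 FPKM (24.9 to 32.7) and 40.9 FPKM (36.9 to 45.0). No SCP bound reached an RSC bound, and the bounds of RSC replicate 2 lay below those of both other RSC replicates. A shorter transcript of 1844 bases was at 1.38 FPKM in SCP replicate 1 and listed at 0 in the other 5 samples.

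Vim, the vimentin gene on chromosome 17 from 80882715 to 80891200, was by far the most abundant of the 10. Its levels were 575, 612 and 621 FPKM in the SCPs, and 5974, 3894 and 3796 FPKM in the RSCs. The SCP values were close together, whereas RSC replicate 1 stood above the other RSCs. The mean was 603 ± 24.7 FPKM in SCPs and 4554 ± 1230 FPKM in RSCs (SD, n = 3 each), 7.56-fold higher, with a log2 difference of 2.88 (standard error 0.18, adjusted p = 0.00012). Vim held rank 129 of all symbols in SCPs and rank 4 in RSCs.

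RSC replicate 1 differed from the others in how its Vim transcripts were named. Besides the reference transcripts, each table lists transcripts without a gene name that Cufflinks assembled from that sample. Such unnamed transcripts held 29.6% and 32.5% of the expression at the Vim locus in RSC replicates 2 and 3, between 15.7% and 19.7% in the SCPs, and none in RSC replicate 1. With them added to the gene they overlap, Vim was at 708, 726 and 773 FPKM in the SCPs and at 5974, 5528 and 5620 FPKM in the RSCs. The coefficient of variation among RSCs fell from 27.0% to 4.12%, and was 4.55% in SCPs. The RSCs were then 7.75-fold higher, with a log2 difference of 2.95 (standard error 0.066, adjusted p = 1.1e-06), at rank 3 of all symbols.

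Gfap also gained from unnamed transcripts, to 4.20, 3.58 and 8.58 FPKM in the SCPs and 49.1, 39.4 and 40.9 FPKM in the RSCs. The share was largest in SCP replicate 3, where 66.2% of the Gfap expression sat in unnamed transcripts. The RSCs were then 7.90-fold higher, with a log2 difference of 2.85 (standard error 0.28), and the groups still lay apart.

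**Figure D2:**
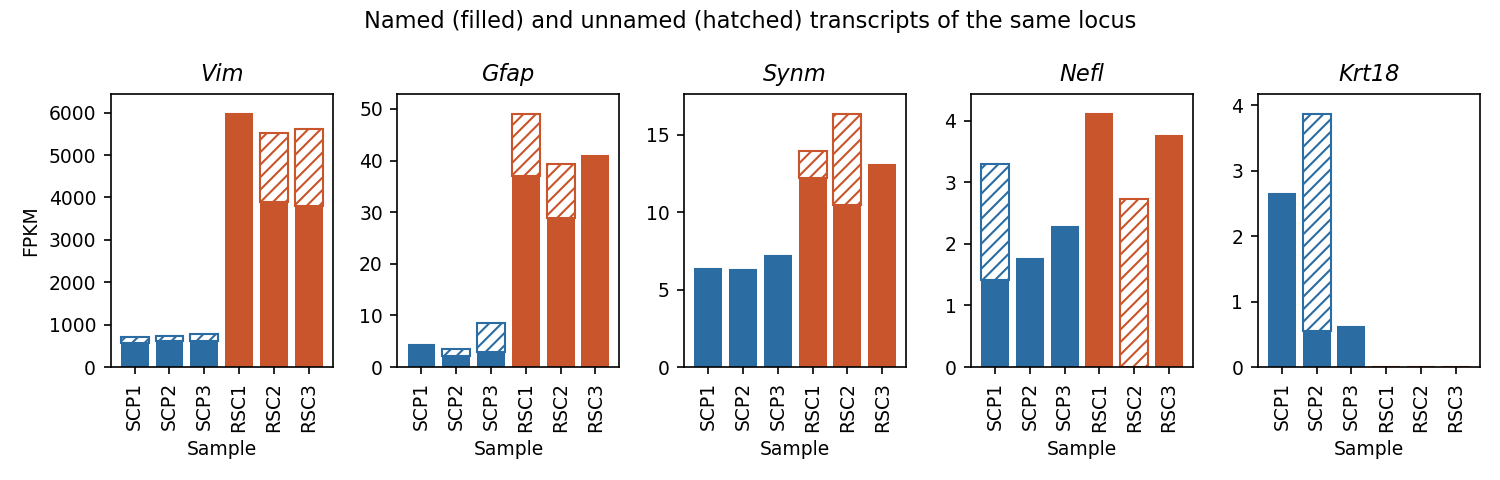
Stacked bars of FPKM in each of the 6 samples at the loci of Vim, Gfap, Synm, Nefl and Krt18, with named transcripts filled and unnamed transcripts of the same locus hatched; each vertical axis starts at 0 and has its own scale. The Vim bars of the RSCs become nearly equal in height when the hatched part is counted, the Nefl bar of RSC replicate 2 is wholly hatched, and Krt18 has no bar in the RSCs.

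Nes, on chromosome 2 from 187343611 to 187352972, encodes nestin, which copolymerizes with vimentin. It was at 28.1, 23.5 and 26.1 FPKM in the SCPs and at 97.3, 90.9 and 97.9 FPKM in the RSCs. The replicates of Nes were tight, and the RSCs all stood above the SCPs. The means were 25.9 ± 2.31 FPKM in SCPs and 95.4 ± 3.87 FPKM in RSCs (SD, n = 3 each), a 3.69-fold difference and 1.85 on the log2 scale (standard error 0.095, adjusted p = 6.1e-05). Nes was just under 4-fold, and over it after median-of-ratios scaling (2.05 on the log2 scale). No unnamed transcript was assigned to Nes. Its rank among all symbols was 2929 in SCPs and 811 in RSCs. Cufflinks split Nes between a transcript of 5946 bases, with 73.2% to 80.2% of its expression in SCPs and 78.8% to 79.9% in RSCs, and one of 6531 bases. It marked both transcripts as having low data in all samples but RSC replicate 3.

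Synm encodes synemin, a large filament protein that joins vimentin or desmin filaments to adhesion sites, and lies on chromosome 1 from 128692112 to 128722048. It was at 6.31, 6.25 and 7.18 FPKM in the SCPs and 12.2, 10.4 and 13.0 FPKM in the RSCs. The groups did not overlap, but the step was the smallest of the 4. The means were 6.58 ± 0.52 FPKM and 11.9 ± 1.33 FPKM (SD, n = 3 each), 1.81-fold higher in RSCs, with a log2 difference of 0.76 (standard error 0.15, adjusted p = 0.0076). The call was lost when RSC replicate 1 was left out (0.74, unadjusted p = 0.0102, adjusted p = 0.029, limma). It was also lost without RSC replicate 3 (0.70, unadjusted p = 0.0105, adjusted p = 0.030, limma). Both narrowly missed the threshold of 0.01. Counting only the highest transcript lost the call as well (0.62, unadjusted p = 0.050, adjusted p = 0.096, limma). With unnamed transcripts added Synm was at 13.9, 16.3 and 13.0 FPKM in the RSCs, with no change in the SCPs, and the difference was 1.02 (standard error 0.13). A transcript of 7432 bases made up 73.5%, 48.7% and 71.8% of Synm in the SCPs and 56.7%, 52.9% and 70.4% in the RSCs, so the split between its 2 transcripts overlapped between groups.

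Taken as a family, the 10 genes summed to between 635 and 669 FPKM in SCPs and between 3959 and 6133 FPKM in RSCs. Vim alone made up 90.4% to 93.0% of that sum in SCPs and 95.9% to 97.4% in RSCs. Outside Vim the make-up of the family differed more. Gfap held 4.73% to 6.91% of the remaining FPKM in SCPs and 20.7% to 25.2% in RSCs. Nes held the largest part in both, 46.2% to 53.8% in SCPs and 60.2% to 65.3% in RSCs, and Nefm held 10.7% to 18.2% in SCPs and 3.64% to 4.35% in RSCs. Per kilobase of transcript, Vim exceeded Nes 20.5-, 26.1- and 23.8-fold in the SCPs and 61.4-, 42.8- and 38.8-fold in the RSCs. Counted with unnamed transcripts, Vim exceeded Nes 25.3-, 31.0- and 29.6-fold in the SCPs and 61.4-, 60.8- and 57.4-fold in the RSCs. Nes exceeded Gfap 6.68-, 10.8- and 9.01-fold in SCPs and 2.63-, 3.15- and 2.39-fold in RSCs. With unnamed transcripts added that ratio was 6.68, 6.54 and 3.04 in SCPs and 1.98, 2.31 and 2.39 in RSCs, and the share of Gfap was 6.71%, 7.09% and 15.8% in SCPs and 24.8% to 28.3% in RSCs, so that SCP replicate 3 came nearer to the RSCs. These shares are descriptions of FPKM and were not tested.

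Prph encodes peripherin, the filament protein of peripheral and autonomic neurons, and lies on chromosome 7 from 140741633 to 140746197. It was at 3.12, 2.52 and 2.44 FPKM in the SCPs and 0.402, 1.47 and 0.173 FPKM in the RSCs. All RSC values were below the SCP values, with RSC replicate 2 nearest to them. The log2 difference was -1.21 (standard error 0.34, unadjusted p = 0.012, adjusted p = 0.028, limma). It narrowly missed the threshold of 0.01 on the unadjusted p, and it passed without RSC replicate 2 (-1.52, adjusted p = 0.0096). No gene of the family was therefore called higher in SCPs by limma, and 1, Prph, had an unadjusted p under 0.05. In the SCPs a transcript of 1753 bases held 80.8% to 89.7% of Prph.

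The neurofilament genes Nefl and Nefm, which encode the light and medium chains of the axonal filament, are neighbors on chromosome 15, with Nefl from 44799378 to 44803251 and Nefm from 44855307 to 44860647. The gap between them is 52.055 kb, with no other named gene of the tables in it. Nefm was at 11.0, 6.63 and 5.19 FPKM in the SCPs and 6.93, 5.58 and 5.92 FPKM in the RSCs. The groups overlapped, and SCP replicate 1 was the highest. The log2 difference was -0.22 (standard error 0.28, interval from -0.90 to 0.46, adjusted p = 0.56), and its sign turned without SCP replicate 1, at 0.052. All of the Nefm expression came from a transcript of 3062 bases.

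Nefl was at 1.41, 1.76 and 2.28 FPKM in the SCPs and at 4.11, 0 and 3.75 FPKM in the RSCs. The 0 in RSC replicate 2 was marked as low data by Cufflinks, and an unnamed transcript at the locus carried 2.73 FPKM in that sample. The difference, 0.05 (interval from -1.59 to 1.69, adjusted p = 0.96, limma), rests on that 0, and without RSC replicate 2 it was 0.82 (adjusted p = 0.054). With unnamed transcripts added Nefl was at 3.30, 1.76 and 2.28 FPKM in SCPs and at 4.11, 2.73 and 3.75 FPKM in RSCs, so that the groups overlapped, with a difference of 0.41 (standard error 0.22, adjusted p = 0.15, limma). The ratio of Nefm to Nefl was then 3.35, 3.77 and 2.27 in the SCPs and 1.69, 2.04 and 1.58 in the RSCs. From named transcripts alone it was 7.84 in SCP replicate 1.

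Nefh encodes the heavy chain and lies on chromosome 14 from 85181572 to 85191583. Its SCP values were 0.0522, 0.0921 and 0.165 FPKM, and every RSC had it at 0. All 10 of its named transcripts were at 0 in the RSCs, and the SCP values came from a single transcript in each sample. At these levels no fold was computed. Nefh was tested only with no filter on low values, and it was not called (adjusted p = 0.10, limma).

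**Figure D3:**
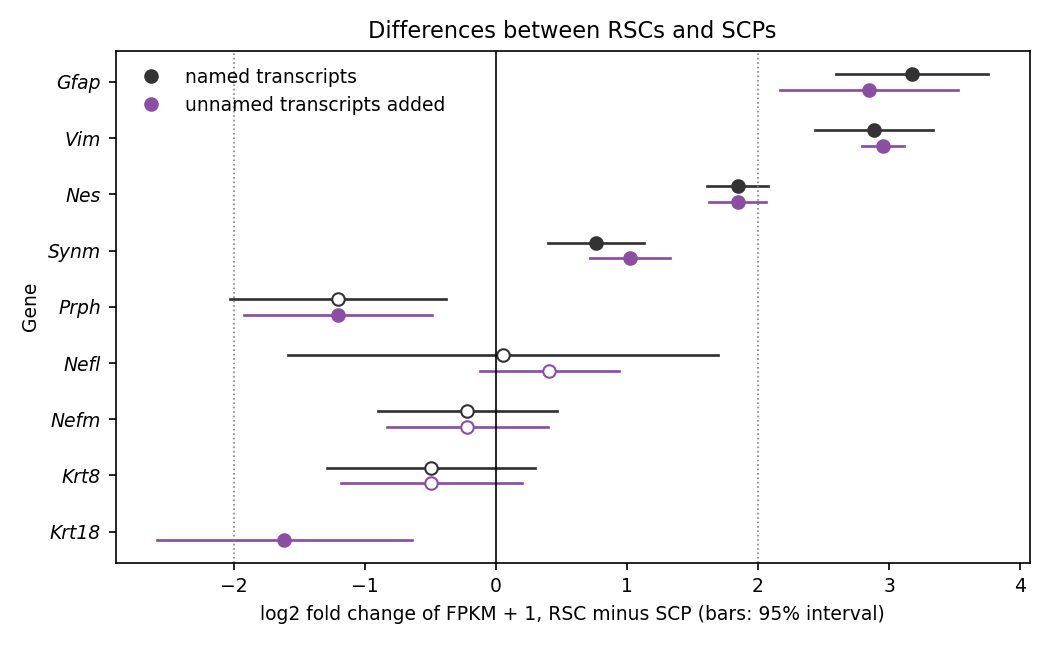
Difference between RSCs and SCPs in log2(FPKM + 1), with 95% intervals from limma, for the genes that entered the test, from named transcripts and with unnamed transcripts added; filled circles mark an unadjusted p under 0.01, and dotted lines mark 4-fold. The intervals of Gfap, Vim, Nes and Synm lie to the right of 0 under both ways of counting, while those of Nefl, Nefm and Krt8 cross it.

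Krt8 and Krt18 lie together on chromosome 7, from 143596511 to 143603745 and from 143629455 to 143633131, with a gap of 25.709 kb and no other named gene of the tables between. Krt8, the type II partner, was at 3.87, 2.41 and 1.61 FPKM in the SCPs and at 1.56, 2.08 and 0.963 FPKM in the RSCs. The groups overlapped, and the log2 difference was -0.49 (standard error 0.32, interval from -1.29 to 0.30, adjusted p = 0.26). Krt18, the type I partner, was at 2.65, 0.544 and 0.620 FPKM in the SCPs and listed at 0 in all RSCs. Most of the Krt18 expression in SCP replicate 2, 85.9%, sat in an unnamed transcript, and with it Krt18 was at 3.87 FPKM there. Krt18 then entered the test, with a log2 difference of -1.62 (standard error 0.40, adjusted p = 0.011, limma) that depends on the 1 added to each FPKM. The 2 keratins were thus unequal in the RSCs, where Krt8 was listed above 0 and Krt18 was not.

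With unnamed transcripts added, 14020 genes were tested, of which 23.2% were called higher in RSCs and 34.1% higher in SCPs. The same 4 genes, Gfap, Vim, Nes and Synm, were called higher in RSCs. Prph (adjusted p = 0.011, limma) and Krt18 were called higher in SCPs, so that 6 of the 9 genes tested were called. The median difference was 0.41 over those 9 genes and -0.24 over all genes.

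In RNA from mixed cells, fewer cells of a type and less RNA per cell cannot be told apart. The preparations held the defining markers of the lineage. Sox10, the transcription factor of glia from the neural crest, was at 179, 175 and 181 FPKM in the SCPs and 149, 143 and 143 FPKM in the RSCs. It was called lower in RSCs, with a log2 difference of -0.30 (adjusted p = 0.0077, limma). Ngfr (log2 difference 2.19), the low-affinity neurotrophin receptor, and S100b (6.37), a calcium-binding protein of maturing Schwann cells, were higher in RSCs. Erbb3, Cdh19 and Foxd3 did not pass from named transcripts, where some of their samples were at 0. When unnamed transcripts were counted, Erbb3 (log2 difference 1.35) and Cdh19 (0.77) were called higher in RSCs, and Foxd3 (0.095) was not called. Fabp7 was listed at 0 in 5 samples and at 0.511 FPKM in RSC replicate 1. Coverage per FPKM, a measure of relative depth, was 0.88 to 1.00 of the highest sample in SCPs and 0.79 to 0.84 in RSCs.

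Vim is expressed in fibroblasts, endothelium and leukocytes as well as in Schwann cells, so the markers of these cells are given beside it, although the plating step was meant to remove fibroblasts and macrophages. All 8 leukocyte markers were higher in RSCs, with a summed level of 14.0 to 40.3 FPKM in SCPs and 2193 to 2644 FPKM in RSCs, led by Lyz2 (log2 difference 8.44) and Tyrobp (4.51), and none was at 0 in a whole group. Of 6 fibroblast markers 4 were higher in RSCs and 1 was lower, with sums of 920 to 1364 FPKM and 4306 to 6728 FPKM. Dcn (6.96) and Col1a1 (3.52) were higher in RSCs, whereas Postn, the most abundant of the list in SCPs, was at 468, 611 and 630 FPKM in SCPs and 18.0, 8.05 and 29.5 FPKM in RSCs. None of 6 endothelial markers was called, with sums of 31.8 to 54.2 FPKM and 55.1 to 66.1 FPKM, led by Tie1 and Emcn. The part of these cells in the level of Vim was not tested.

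The neurofilament genes and Prph are read here beside markers of neurons. Of 12 neuron markers 5 were tested, none was higher in RSCs and 2 were higher in SCPs. Stmn2, a growth cone protein, was at 5.0, 3.51 and 3.19 FPKM in the SCPs and 0.126, 0.115 and 0 FPKM in the RSCs, and Elavl4, a neuronal RNA-binding protein, was at 2.92, 1.32 and 2.2 FPKM in the SCPs and at 0 in all RSCs. Isl1 and Dbh were likewise at 0 in all RSCs, and Isl1 was also called higher in SCPs with unnamed transcripts added (-3.61). Prph and Nefh likewise had their lowest values in the RSCs, whereas Nefl and Nefm were listed in the RSCs at levels that overlapped those of the SCPs. Tubb3 (32.0, 21.3 and 22.0 against 23.7, 17.3 and 18.3 FPKM) and Uchl1 (147, 127 and 105 against 94.1, 96.0 and 96.9 FPKM) were present in both groups and were not called. The summed level of the list was 145 to 201 FPKM in SCPs and 114 to 119 FPKM in RSCs, nearly all of it Uchl1 and Tubb3. Elavl3, Snap25, Syt1, Rbfox3 and Th had means under 1 FPKM and were not tested. How much of the neurofilament RNA came from neurons was not tested.

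**Figure D4:**
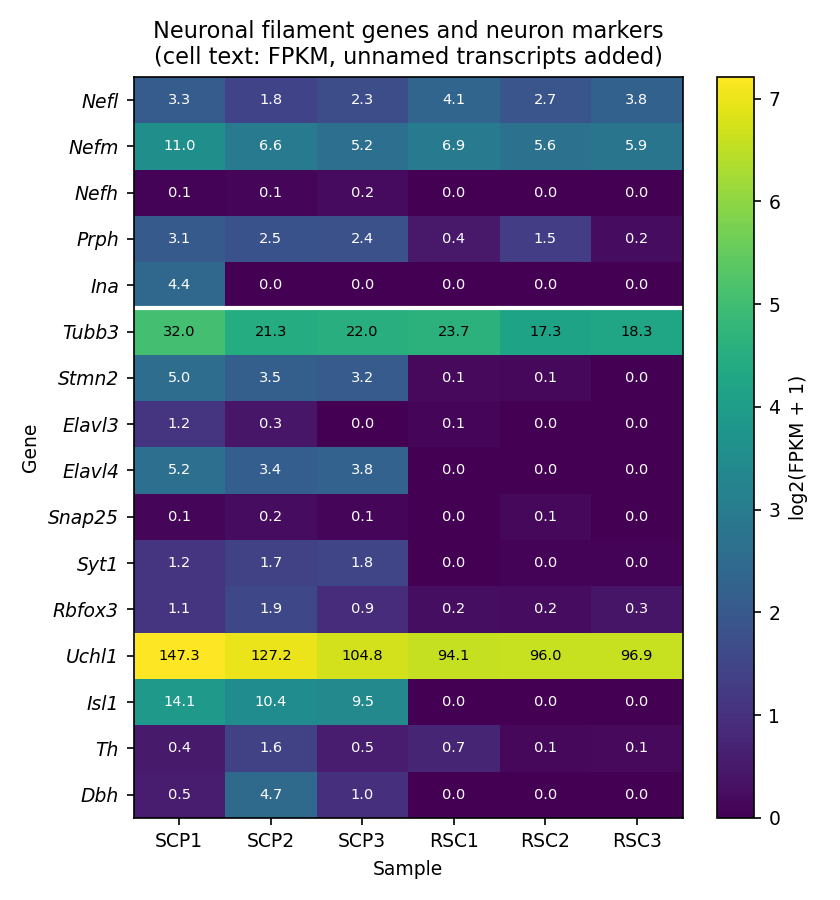
Heat map of neuronal filament genes (above the white line) and markers of neurons (below it) in the 6 samples, colored by log2(FPKM + 1) with the FPKM in each cell, unnamed transcripts added. Nefl and Nefm keep similar colors in both groups, while Stmn2, Elavl4 and Isl1 are dark in the RSCs.

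The keratins can be set beside epithelial markers. The 6 epithelial markers summed to 2.86 to 4.24 FPKM in SCPs and 6.11 to 7.53 FPKM in RSCs, and the only one tested, Epcam, was higher in RSCs (log2 difference 1.63), opposite to Krt18. Esrp1 and Grhl2 were at 0 in all RSCs, with means of 0.255 and 0.133 FPKM in SCPs. Cdh1 was at 0.573, 0.690 and 0.474 FPKM in the SCPs and 1.69, 1.09 and 1.01 FPKM in the RSCs. Its mean over all samples was under 1 FPKM, so it was not tested. Of 23 other keratin genes 22 were in the tables and 4 were tested, with 0 higher in RSCs by limma, 2 higher in SCPs and a median of -1.44. Krt15 (-1.70) and Krt19 (-1.18) were the ones called, and 15 of the 22 were listed at 0 in all RSCs, Krt15 among them, against 6 at 0 in all SCPs, with 5 of these at 0 in every sample. Krt5, a keratin of basal epithelial cells, was at 6.23, 0.425 and 5.12 FPKM in the SCPs and 0 in the RSCs (adjusted p = 0.047, limma, not called), and Krt14, its partner, at 2.73, 0.127 and 3.02 FPKM in the SCPs and 0 in the RSCs. Krt5, Krt14 and Krt15 were lowest in SCP replicate 2, while Krt18 with its unnamed transcript was highest there. The part of epithelial cells in the keratin levels was not tested.

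Partners of the filaments moved in both directions. Of 7 plakins, the giant linkers that tie filaments to the membrane, nucleus and microtubules, 2 were tested and both were higher in RSCs, with a median of 2.37. Plec, or plectin, which binds vimentin and GFAP filaments, was at 5.42, 6.30 and 3.16 FPKM in the SCPs and 60.0, 53.5 and 56.8 FPKM in the RSCs, a log2 difference of 3.31 that was close to those of Vim and Gfap. Dst differed by 1.43. With unnamed transcripts added another plakin, Macf1, was tested and was lower in RSCs (-1.05), Dst differed by 0.76, and the median of the list fell to 0.76. Among 4 chaperones and turnover factors, the small heat shock proteins Cryab (5.72) and Hspb1 (5.29), which bind GFAP and vimentin filaments, were higher in RSCs, and the ubiquitin ligase Trim32 (-0.99) was lower. Hspb1 was at 7.58, 11.1 and 8.31 FPKM in the SCPs and 332, 385 and 445 FPKM in the RSCs, and both exceeded Gfap in their log2 difference.

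None of 8 kinases known to phosphorylate intermediate filaments was higher in RSCs by limma at p under 0.01, against 18.1% of all tested genes. So short a list can hold none at that share. Aurkb (-2.08), Plk1 (-1.90) and Cdk1 (-0.68), which act on vimentin or nestin in mitosis, were lower in RSCs, and the median of the list was -0.32. The lamins, the intermediate filaments of the nucleus, split as well. Lmna was at 3.11, 7.85 and 7.96 FPKM in the SCPs and 116, 120 and 124 FPKM in the RSCs, a log2 difference of 4.13, larger than that of any of the 10 genes. Lmnb1 was at 47.6, 48.9 and 35.3 FPKM in the SCPs and 4.97, 6.83 and 10.0 FPKM in the RSCs, a difference of -2.47. The third lamin, Lmnb2, was not called from named transcripts, where SCP replicate 1 and RSC replicate 2 were at 0, and the median over the list was -1.0. Lmnb2 with its unnamed transcripts was at 30.0, 25.4 and 26.4 FPKM in the SCPs and 9.02, 8.88 and 9.32 FPKM in the RSCs, and it was called lower in RSCs (-1.48).

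Of 7 other intermediate filament genes 5 were tested and 1 was called. Des, the desmin of muscle, was at 6.03, 8.73 and 13.3 FPKM in the SCPs and 28.0, 23.1 and 23.0 FPKM in the RSCs, a log2 difference of 1.37 (adjusted p = 0.0086, limma). Counting unnamed transcripts, 2 were called, the other being Sync, or syncoilin, at 0 in the SCPs and 8.85, 8.51 and 7.89 FPKM in the RSCs. Beside Des, 1 of 5 tested mural cell markers was higher in RSCs. Their list summed to 73.4 to 259 FPKM in SCPs and 111 to 178 FPKM in RSCs, with Acta2 and Pdgfrb the most abundant over all samples. Once unnamed transcripts were added, 3 of 6 mural markers were higher in RSCs and 2 were lower. Rgs5, listed at 0 in the RSCs before, was then at 4.98, 9.99 and 5.28 FPKM in the SCPs and 98.4, 79.9 and 75.3 FPKM in the RSCs. Pdgfrb, among the 2 that were lower (-0.60), was at 19.8, 24.7 and 19.9 FPKM in the SCPs and 14.9, 14.6 and 12.0 FPKM in the RSCs. The part of mural cells in the level of Des was not tested. All 5 tested skeletal muscle markers were higher in SCPs, with sums of 55.0 to 221 FPKM and 3.78 to 5.75 FPKM, led by Actc1 and Myog, and with Myod1 at 0 in all RSCs. That direction was opposite to that of Des. Ina, or internexin, a neuronal filament gene, was listed at 4.37 FPKM in SCP replicate 1 and at 0 in the other 5 samples. From named transcripts, that SCP replicate had the highest Nefm, Prph, Krt8, Krt18, Gfap and Nes of the SCPs, and the lowest Nefl, Nefh and Vim. With unnamed transcripts added, Nefl was highest there, while Gfap and Krt18 were not.

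**Figure D5:**
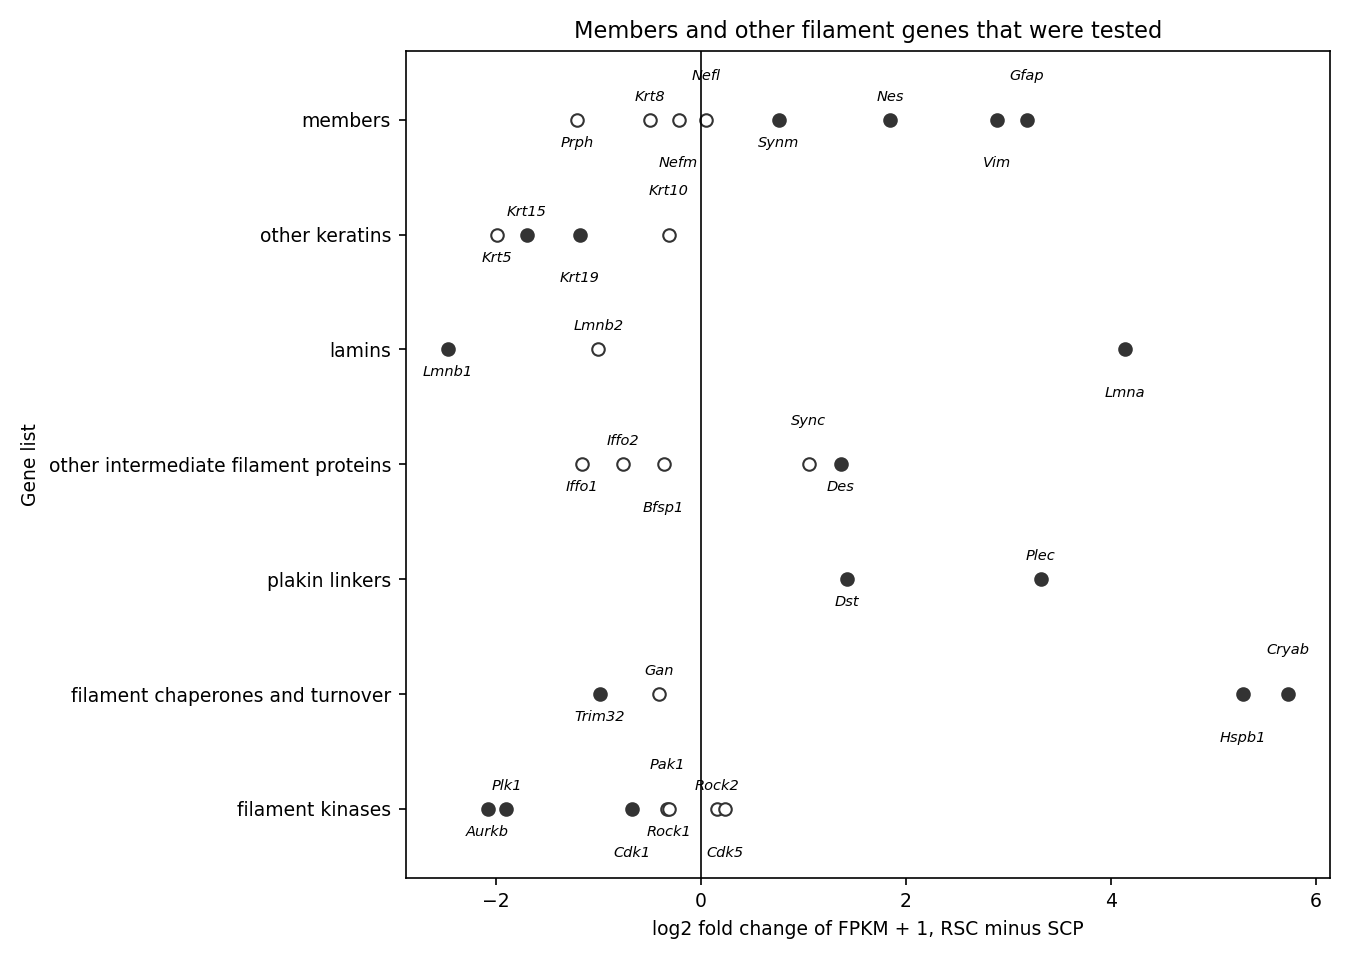
Differences between RSCs and SCPs in log2(FPKM + 1) on the horizontal axis for tested genes of the family and of 6 lists of other filament and partner genes, 1 list per row; filled points have an unadjusted p under 0.01. Chaperones, plakins and Lmna lie to the right with Gfap, Vim and Nes, and the called kinases and keratins lie to the left.

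Among the marker lists used here, the erythroid list differed most in its summed FPKM. All 4 that were tested were higher in SCPs, and the sum of the list was 16659 to 74546 FPKM in SCPs and 0.434 to 1.58 FPKM in RSCs, led by Hbe1 and Hbz, both at 0 in all RSCs. FPKM are shares of the sequenced fragments and depend on such abundant RNAs. After median-of-ratios scaling, which sets the typical gene equal, Gfap, Vim, Nes and Synm were still called higher in RSCs.

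The genes with the most similar pattern were found by the Euclidean distance between log2(FPKM + 1) values in the 6 samples, each centered on its mean, among 12922 tested genes outside the lists. The nearest to Gfap were Sorcs2 (distance 0.31), Rhpn1 (0.41) and LOC103690030 (0.46). Sorcs2, a sortilin-family receptor, was at 11.5, 8.58 and 9.14 FPKM in the SCPs and 114, 84.8 and 109 FPKM in the RSCs, lowest among the RSCs in replicate 2, as Gfap was. The nearest to Nes were LOC100910255 (0.073), Cyb5r3 (0.15) and LOC100911495 (0.16), of which Cyb5r3, a cytochrome b5 reductase, rose from between 40.7 and 46.3 FPKM to between 149 and 152 FPKM. The nearest to Nefl were Orai1 (0.21), a calcium channel, Negr1 (0.38) and Slc6a11 (0.55). These 3 were at 2.25, 0 and 0 FPKM in RSC replicate 2. Nefl was at 0 there from named transcripts, and at 2.73 FPKM with its unnamed transcript. The search picks genes by their likeness in each sample, so these shared low values, and that of Sorcs2, follow from it.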

How the data were processed

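RNA of 3 SCP and 3 RSC preparations was made by the authors into strand-specific mRNA libraries and read from both ends over 100 bases. The submitters' processing notes name FastQC 0.11.2, TopHat2 2.1.0, Cufflinks 2.2.1 and the rn6 rat genome. The authors deposited 1 Cufflinks table per sample with the FPKM of each transcript, its bounds and its coverage, a signal used here only for relative depth. The tables hold no counts, so absolute depth and counting error are unknown.

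FPKM were summed by symbol, and 77 transcripts per table whose names had become dates were left out. Unnamed transcripts, 8815 to 12417 per table, were left out or, as an alternative, added to whichever gene at their Cufflinks locus shared most bases with them. How Cufflinks divided reads between similar keratin genes is not stated. Genes averaging 1 FPKM or more were compared with limma 3.58.1 (R 4.3.3) on log2(FPKM + 1), two-sided, with a trend of the variance and without a replicate block. Tables were handled with pandas 2.3.3. Tested on simulated data for 13003 genes, 91.5% of 200 genes changed by a log2 of 3 and 1.09% of the unchanged genes had p under 0.01.

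The genes and the lists of filament partners and markers were chosen with earlier results of these data known. Named are all 10 genes, up to 2 called genes per direction of each filament or partner list with the largest difference, the Schwann cell and neuron markers, the 2 most abundant of other marker lists, and the 3 nearest profiles to Gfap, Nes and Nefl. Krt5, Krt14, Macf1, Lmnb2, Cdk1, Ina, Esrp1, Grhl2, Rgs5, Postn, Sync and Myod1 were named after their values were seen. A few genes of these lists are not reported here. Further alternatives were a pseudocount of 0.1, no filter or a mean of at least 5 FPKM, quantile or median-of-ratios scaling, no variance trend, a replicate block, adjusted p under 0.05, the highest transcript, each sample left out, and values of 0 left out where another replicate had at least 5 FPKM.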

Additional observations from a re-analysis of the deposited data

How the results depend on the processing

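Gfap, Vim and Nes kept their direction and their call under all 17 alternatives, with log2 differences of 2.85 to 3.52, 2.67 to 3.09 and 1.78 to 2.05. The number of intermediate filament genes called higher in RSCs was 4 from all samples and 3 to 4 with 1 sample left out, the gene lost being Synm (0.70 to 0.85), which also missed the threshold with only its highest transcript (0.62). The number called higher in SCPs was 0, and 1 without the variance trend, after quantile normalization, with values of 0 left out or at an adjusted p under 0.05, 2 with unnamed transcripts added, and 0 to 1 with 1 sample left out. The gene gained was Prph, at -1.21 without the trend, with unnamed transcripts added, with values of 0 left out and by adjusted p, -1.37 after quantile normalization, and -1.52 to -0.98 with 1 sample left out. With a pseudocount of 0.1 Prph was at -2.21 and not called. Krt18, at -1.06 and not called with no filter (adjusted p = 0.062, limma), moved to -1.62 with unnamed transcripts added. Nefl turned to -0.68 with a pseudocount of 0.1 and to -0.040 after quantile normalization, and ran from -0.36 to 0.82 with 1 sample left out, where Nefm ran from -0.43 to 0.052. None of these values of Nefl or Nefm passed the threshold.

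With the replicate number as a replicate block, the counts of the family stayed at 4 and 0, with adjusted p = 0.028 for Synm (0.76) and adjusted p = 0.061 for Prph (limma), while calls over all genes went from 5268 to 4275. Samples of the same number showed little shared deviation (correlations 0.044, -0.0049 and 0.026). The RSC most like SCP replicates 1, 2 and 3 in its deviations was replicate 1, 1 and 3. With 3 preparations per group, whether the numbers pair the samples cannot be told. Adding unnamed transcripts raised the calls over all genes to 8038 of 14020. Median-of-ratios scaling turned the split of calls from 2351 higher in RSCs of 5268 to 2757 of 4964. The depth is unknown, so no detection limit can be given for genes listed near 0, such as Nefh and Krt18.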
